A study of Drosophila melanogaster with 10 samples.

Results

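The UDP-glycosyltransferase (UGT) genes of Drosophila melanogaster were taken as every gene whose symbol in the array annotation begins with Ugt and a digit. This gave 35 of the 11982 named genes on the array. Each had 1 probe set, and all 35 were matched by gene number in the RefSeq gene table of assembly Release 6, which lists 35 genes with such symbols. No probe set shared between several gene symbols included a UGT gene. The probe sets of Ugt36E1, Ugt37D1 and Ugt50B3 are of the kind whose probes can match several transcripts, so signal from related genes in these 3 was not separated.

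UGT enzymes sit in the membrane of the endoplasmic reticulum and transfer a sugar from a UDP-sugar to small lipophilic molecules, which makes them more soluble. In insects the sugar is mostly glucose, and the acceptors include plant toxins, insecticides, pigments and hormones. The reaction belongs to the conjugation stage of detoxification, which often follows oxidation by cytochrome P450 enzymes and runs beside conjugation by glutathione transferases. UGT genes often lie next to each other in the genome as tandem copies. In Drosophila their transcripts are known from fat body, gut, Malpighian tubules and antennae.

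The arrays measured total RNA after a control RNAi or after RNAi of H1, the linker histone that sits where DNA enters and leaves the nucleosome. Kc cells, an embryonic line with properties of haemocytes, were cultured at 25 °C in medium with 10% serum. They were given dsRNA against GFP (2 arrays) or against H1 (2 arrays) for 1 hour on days 0, 2 and 4, with RNA taken on day 6 (the series record describes a single treatment). Salivary glands came from flies in which the Tub-Gal4 driver, active in most cells of the animal, expressed RNAi against Nautilus (nau; 3 arrays) or against H1 (3 arrays). Crosses were held at 18 °C and knockdown ran at 29 °C from the embryo on, and the labels give no age of the animals. Every gland group thus carried the driver and an RNAi construct, and the RNAi acted in the whole animal. Whether the arrays within a group stand for separate cultures or dissections is not stated, so p-values cover array-to-array spread that may be technical only. In glands, fewer cells of a type and less RNA per cell cannot be told apart.

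The H1 transcript was not analysed here, because none of the annotated symbols used here was His1. The signal of nau was 6.02, 5.54 and 5.50 in the 3 gland arrays labelled nau RNAi. It was 3.53, 3.53 and 3.36 in the 3 labelled H1 RNAi, the reverse of a depletion of nau in the former. In Kc cells nau had a mean of 5.96 with GFP dsRNA and 7.02 with H1 dsRNA (limma adjusted p = 0.00632). Whether the nau probe set also reads the RNAi construct was not tested. All gland directions below therefore refer to the labels, and with the labels exchanged every gland change would have the opposite sign. Salivary gland markers summed to 16.63 to 16.70 on the log2 scale in the glands labelled nau RNAi and to 14.41 to 14.56 in those labelled H1 RNAi, against 8.36 in the Kc arrays given GFP dsRNA, and 8 of 8 fell with the H1 label. None of the 12 haemocyte markers was at background in any group. The gland arrays also carried strong fat body signal, with Lsp2, which encodes a larval serum protein, at a mean of 14.06 and 14.08 on arrays whose highest probe sets reached 14.09 to 14.34. The 4 measured fat body markers summed to 15.24 to 15.35 (nau) and 15.40 to 15.45 (H1), and 2 rose and 1 fell. The 7 measured neuron and glia markers summed to 6.66 to 6.69 (nau) and 7.44 to 9.16 (H1), and 4 rose and 1 fell. The 7 measured Malpighian tubule markers summed to 9.98 to 10.81 (nau) and 8.05 to 9.65 (H1), and 0 rose and 3 fell. The 11 midgut markers summed to 8.36 to 8.81 (nau) and 8.47 to 11.46 (H1), and 3 rose and 2 fell. The haemocyte markers summed to 12.41 to 12.66 (nau) and 13.16 to 13.25 (H1), and 10 rose and 1 fell. The 6 measured muscle markers summed to 8.82 to 9.61 (nau) and 8.90 to 9.96 (H1), and 1 rose and 0 fell. The 7 measured trachea and epidermis markers summed to 9.95 to 10.17 (nau) and 8.75 to 9.68 (H1), and 1 rose and 1 fell. The 5 measured imaginal cell markers summed to 8.79 to 9.04 (nau) and 9.02 to 9.20 (H1), and 1 rose and 1 fell. All these counts stand beside 23.6% of all named genes called higher and 23.6% called lower in glands. The 3′ minus 5′ signal of the actin, GAPDH and eIF-4a controls was larger in each gland array labelled H1 RNAi than in each labelled nau RNAi. The part of these cell type and RNA quality signals in the gland results below was not tested.

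Signals are log2 of the deposited intensity. A level is compared between groups for the same gene and never between genes, because probes differ in brightness. Background was set at 3.55, the 95th percentile of 17 Tag control probe sets that match no fly transcript. By this measure 19 of the 35 UGT genes were above background in every array of at least 1 group. These were Ugt301D1, Ugt302C1, Ugt302E1, Ugt302K1, Ugt305A1, Ugt316A1, Ugt317A1, Ugt35A1, Ugt35C1, Ugt36A1, Ugt36D1, Ugt36E1, Ugt36F1, Ugt37A3, Ugt37C1, Ugt37C2, Ugt37D1, Ugt49B1 and Ugt49C1. The number above background in every array was 15 in Kc cells given GFP dsRNA, 17 in Kc cells given H1 dsRNA, and 16 in the glands of either label.

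The remaining 16 genes ranged from 2.58 to 3.92 over all 10 arrays. Of these, 13 never exceeded 3.55 on any array, namely Ugt303A1, Ugt303B1, Ugt303B2, Ugt303B3, Ugt304A1, Ugt307A1, Ugt35B1, Ugt35D1, Ugt35E1, Ugt37B1, Ugt37E1, Ugt49B2 and Ugt50B3. Ugt35E2, Ugt37A1 and Ugt37A2 crossed the line on some arrays. Ugt35B1, whose transcript is known from the antenna of the fly, was among the 13, at means of 2.81 to 2.95 in the 4 groups. For such genes a change within the range of background cannot be measured.

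**Figure D1:**
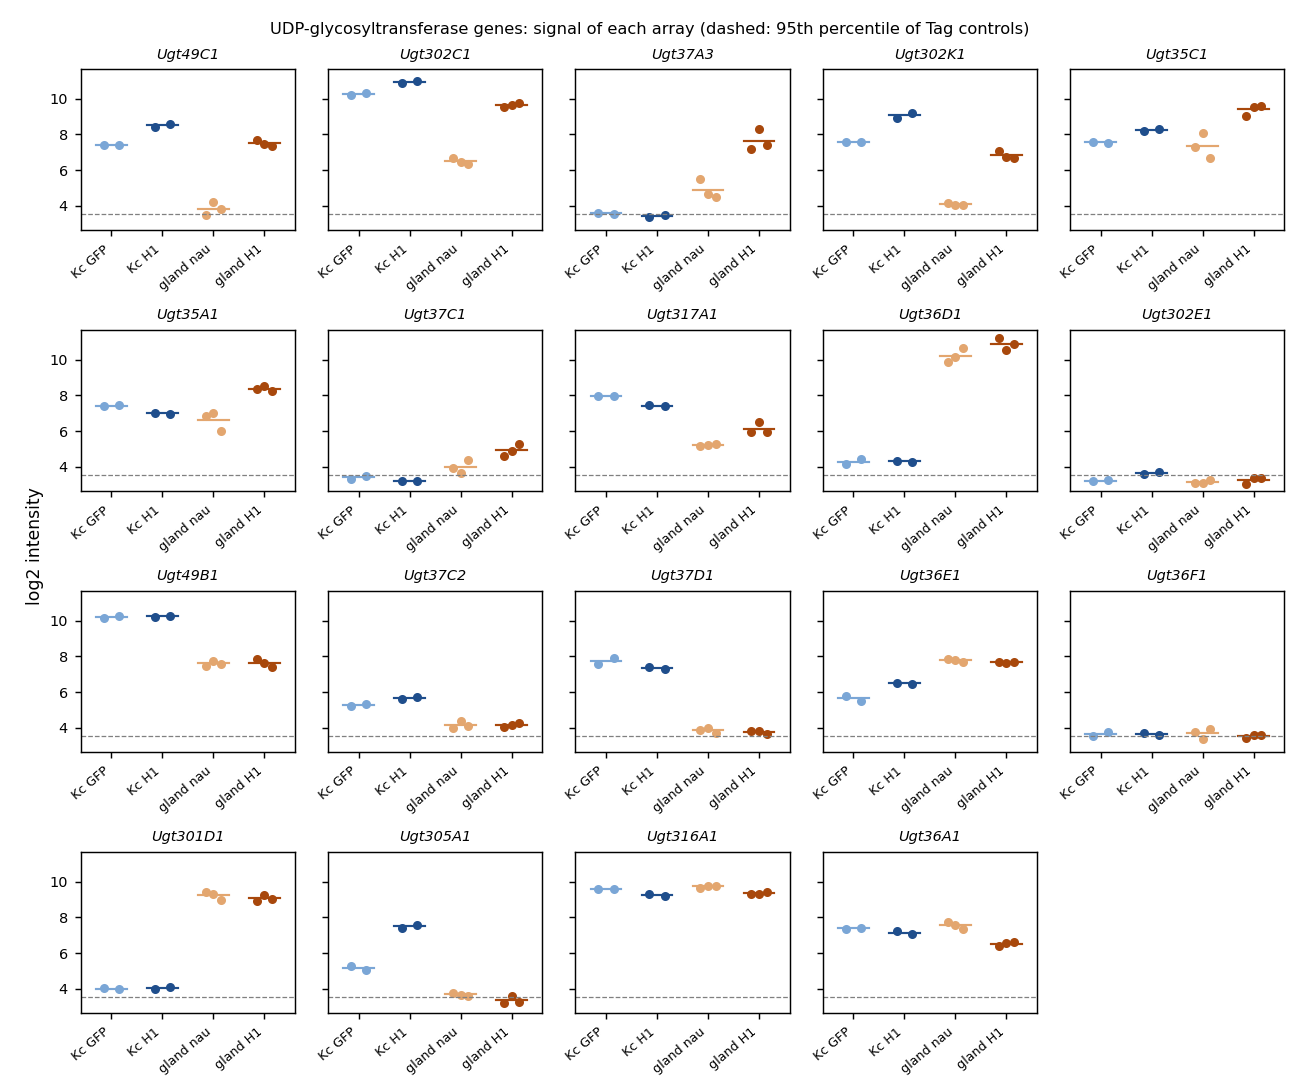
Log2 intensity of the 19 UGT genes that exceeded background in every array of at least 1 group. Each point is an array, the short lines are group means, and the dashed line is the Tag control level of 3.55. Ugt49C1, Ugt302C1 and Ugt302K1 show the widest gap between the nearest arrays of the gland labels, and Ugt305A1 the widest between those of the Kc groups.

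In Kc cells, 5 UGT genes rose with H1 RNAi and none fell. These were Ugt305A1, Ugt302K1, Ugt49C1, Ugt36E1 and Ugt302C1, with increases of 0.65 to 2.32 on the log2 scale. The 5 make 14.3% of the 35 genes, where 3.46% of all named genes were called higher. For decreases the shares were 0 of 35 genes against 1.59% of all named genes, with 10 UGT genes at an unadjusted p under 0.05 in either direction in limma. The median log2 change of the 35 genes was 0.03, beside -0.03 for all named genes.

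Ugt305A1 had the largest Kc change of the 35 genes. Its log2 signal was 5.30 and 5.07 in the GFP arrays and 7.42 and 7.60 in the H1 arrays. The log2 change was 2.32 (95% interval 2.00 to 2.64, limma adjusted p = 4.48e-05). Both H1 arrays thus lay more than 2 units above both GFP arrays. In glands the gene was near background, at 3.77, 3.66 and 3.62 (nau) and 3.23, 3.58 and 3.29 (H1), with a change of -0.32 that did not pass (adjusted p = 0.053). The effects in glands and Kc cells differed by -2.64 (adjusted p = 1.17e-05).

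Ugt302K1 read 7.58 and 7.60 with GFP dsRNA and 8.95 and 9.20 with H1 dsRNA, so the groups were well apart. The change was 1.48 (interval 1.16 to 1.80, adjusted p = 0.000356). Ugt49C1 went from 7.39 and 7.42 to 8.44 and 8.58, a change of 1.11 (interval 0.64 to 1.57, adjusted p = 0.0175). Ugt302C1 had a smaller step, from 10.24 and 10.30 to 10.86 and 10.98, a change of 0.65 (interval 0.36 to 0.93, adjusted p = 0.0206). The groups did not overlap in these 3 genes, but neither did they in uncalled genes within background, such as Ugt303A1 and Ugt50B3. The calls of Ugt49C1 and Ugt302C1 were lost when any 1 of the 4 Kc arrays was left out, which takes the Kc count from 5 to 3, and the lone array of a group was then assumed to vary like the other groups.

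Ugt36E1 is expressed in olfactory neurons of the fly and is known for a part in the discrimination of sex pheromones. Its Kc signal was 5.80 and 5.52 with GFP dsRNA and 6.54 and 6.46 with H1 dsRNA. The change was 0.84 (interval 0.58 to 1.10, adjusted p = 0.00324). In glands its level did not separate the labels, at 7.85, 7.81 and 7.66 (nau) against 7.70, 7.63 and 7.67 (H1), a change of -0.10 (interval -0.32 to 0.11). The difference between the effects was -0.94 (adjusted p = 0.00137).

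The other 30 UGT genes did not pass in Kc cells, with changes from -0.55 for Ugt317A1 to 0.72 for Ugt35C1. Ugt317A1 read 7.97 on both GFP arrays and 7.46 and 7.39 on the H1 arrays (adjusted p = 0.13). Ugt35C1, earlier named Ugt86Dd and known for natural variation in larval resistance to nicotine, read 7.60 and 7.52 against 8.22 and 8.33 (adjusted p = 0.411). Although the arrays of the 2 groups did not overlap in either gene, the intervals reached from -0.93 to -0.17 and from -0.08 to 1.52. Ugt37C2 read 5.23 and 5.33 against 5.61 and 5.72, and Ugt37D1 7.58 and 7.93 against 7.43 and 7.32 (adjusted p = 0.206 and 0.225). Ugt302E1 read 3.22 and 3.25 against 3.58 and 3.73, so it cleared background with H1 dsRNA only, and its change of 0.43 did not pass (adjusted p = 0.118). Ugt36A1, also called Dorothy and known from the blood cell and pericardial cell lineages of the fly, changed by -0.24 (interval -0.57 to 0.09). With Kc cells fitted alone, 8 UGT genes were higher and 2 lower, where 7.76% of all named genes were called higher and 5.88% lower.

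**Figure D2:**
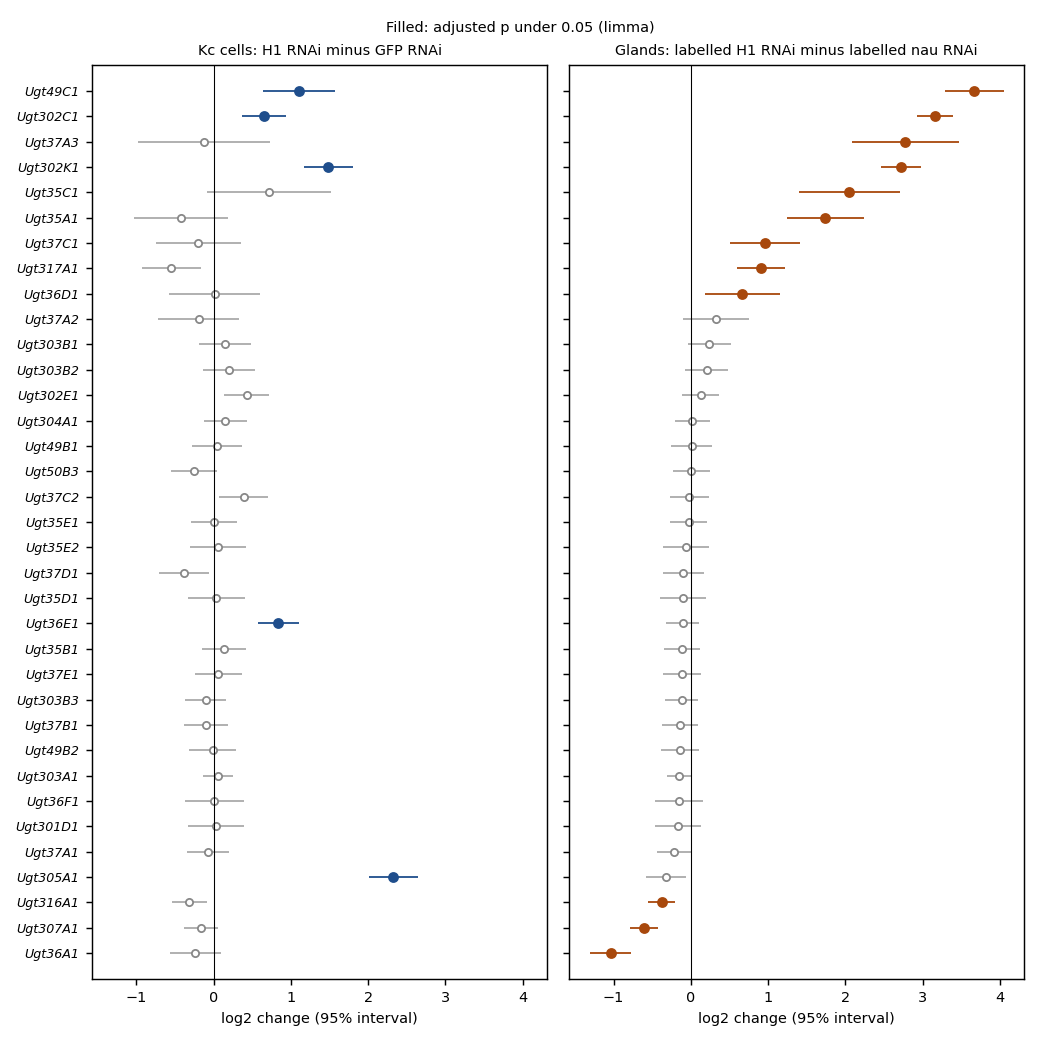
Log2 change of all 35 UGT genes with 95% intervals from limma, in Kc cells (left) and in glands (right), ordered by the gland change. Filled points passed at an adjusted p under 0.05: 5 in Kc cells, all higher, and 12 in glands, 9 higher and 3 lower.

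In salivary glands, 9 UGT genes were higher and 3 lower in the glands labelled H1 RNAi than in those labelled nau RNAi. The higher genes were Ugt49C1, Ugt302C1, Ugt37A3, Ugt302K1, Ugt35C1, Ugt35A1, Ugt37C1, Ugt317A1 and Ugt36D1, of which the first 6 passed 2-fold. The lower genes were Ugt36A1, Ugt307A1 and Ugt316A1. The 9 genes make 25.7% of the 35, close to the 23.6% of all named genes called higher, so the count itself does not set UGT genes apart. The 3 lower genes make 8.57%, where 23.6% of all named genes were called lower. The median log2 change was -0.03 for the 35 genes and -0.04 for all named genes.

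Ugt49C1 and Ugt302C1 had the largest gland changes of the 35 genes, and which of them ranked first depended on the scale. The Ugt49C1 signal was 3.46, 4.22 and 3.85 in the arrays labelled nau RNAi, of which 2 of 3 exceeded background, and 7.69, 7.47 and 7.38 in those labelled H1 RNAi. The change was 3.67 (interval 3.29 to 4.05) with an adjusted p of 2.38e-07. On the log2(intensity + 16) scale it was 2.70, below the 2.96 of Ugt302C1. The H1-labelled level was close to the 7.39 and 7.42 of Kc cells given GFP dsRNA.

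Ugt302C1 rose from 6.68, 6.47 and 6.34 to 9.55, 9.67 and 9.76, a gap of nearly 3 units between the closest arrays. The change was 3.16 (interval 2.93 to 3.40; 8.97-fold; adjusted p = 2.96e-08). Ugt302K1 rose from 4.17, 4.05 and 4.08 to 7.06, 6.72 and 6.69, a change of 2.73 (interval 2.47 to 2.98; adjusted p = 1.26e-07). These 2 genes and Ugt49C1 were the ones called higher in both systems. In all 3 the gland effect exceeded the Kc effect, by 2.56 for Ugt49C1, 2.52 for Ugt302C1 and 1.25 for Ugt302K1 (adjusted p of the difference 0.000122, 8.01e-06 and 0.000843). On the log2(intensity + 16) scale the difference was 1.66 for Ugt49C1 and 0.56 for Ugt302K1. With the gland labels exchanged, the 3 genes would fall in glands, and the differences would be -4.78, -3.81 and -4.21.

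Ugt37A3 stood at 5.48, 4.65 and 4.47 with the nau label and at 7.20, 8.32 and 7.42 with the H1 label. Its change of 2.78 had a wide interval, 2.08 to 3.47 (adjusted p = 6.73e-05), as the arrays of each label spread over about 1 unit. In Kc cells the gene was near background, at 3.63 and 3.53 (GFP) and 3.41 and 3.50 (H1). The effects differed by 2.90 (adjusted p = 0.00191).

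Ugt35C1 read 7.31, 8.06 and 6.69 with the nau label and 9.06, 9.56 and 9.60 with the H1 label, a change of 2.05 (interval 1.40 to 2.71; adjusted p = 0.000333). Ugt35A1 read 6.87, 7.01 and 6.01 and then 8.38, 8.51 and 8.23, a change of 1.74 (interval 1.25 to 2.24; adjusted p = 0.000159). In both genes array c labelled nau RNAi was the lowest of the 6, and the labels did not overlap. For Ugt35A1 the gland effect exceeded the Kc effect of -0.42 by 2.16 (adjusted p = 0.0015). For Ugt35C1 the difference of 1.34 did not pass (interval 0.30 to 2.37; adjusted p = 0.0608).

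Smaller increases were found for 3 genes. Ugt37C1 went from 3.92, 3.67 and 4.39 to 4.63, 4.92 and 5.31, a change of 0.96 (adjusted p = 0.00388), or 0.55 on the log2(intensity + 16) scale. Ugt317A1 went from 5.19, 5.21 and 5.28 to 5.95, 6.50 and 5.96, a change of 0.91 (adjusted p = 0.000537), or 0.60 after quantile normalization. Ugt36D1 read 9.89, 10.15 and 10.67 and then 11.24, 10.56 and 10.91, so its labels overlapped, with a change of 0.67 (interval 0.18 to 1.15; adjusted p = 0.0332). The Ugt36D1 call was lost in 8 of 18 alternatives, including the fit of glands alone and the fits without nau array a, nau array b, H1 array a or H1 array c of the glands. For Ugt317A1 the gland effect exceeded the Kc value of -0.55 by 1.46 (adjusted p = 0.001).

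Of the lower genes, Ugt36A1 (Dorothy) read 7.77, 7.57 and 7.35 with the nau label and 6.38, 6.56 and 6.63 with the H1 label. The labels did not overlap, and the change was -1.04 (interval -1.31 to -0.77; adjusted p = 8.24e-05). Ugt316A1 moved little, from 9.65, 9.77 and 9.78 to 9.31, 9.31 and 9.45, a change of -0.38 (interval -0.56 to -0.20; adjusted p = 0.00408). The third call, Ugt307A1, ran from 3.40, 3.39 and 3.35 to 2.84, 2.67 and 2.83. Since every array of both labels lay under the background line, no fold is given for it. With array medians set equal, the gland split was 9 higher and 5 lower, with Ugt303A1 and Ugt305A1 added.

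The other 23 genes did not pass in glands, with changes from -0.32 for Ugt305A1 to 0.33 for Ugt37A2. Among them were genes with clear gland signal. Ugt49B1 was at 7.61 ± 0.14 (SD, n = 3) and 7.62 ± 0.21 (n = 3) in the order nau and H1, with an interval of the change from -0.25 to 0.28. Ugt301D1 was at 9.23 ± 0.25 (n = 3) and 9.07 ± 0.15 (n = 3), with an interval from -0.46 to 0.13.

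Tests of the gland effect against the Kc effect passed for 11 UGT genes, or 31.4%, next to 32% of all named genes. Ugt302C1, Ugt302K1, Ugt317A1, Ugt35A1, Ugt37A3, Ugt37C1 and Ugt49C1 had the higher effect in glands. Ugt305A1, Ugt36A1, Ugt36E1 and Ugt307A1 had the lower signed effect in glands, the last within background in all 4 groups. Ugt36A1 changed by -1.04 in glands and by -0.24 in Kc cells, where it did not pass. With the gland labels exchanged, 12 UGT genes would pass, 3 higher and 9 lower, next to 34.2% of all named genes. Ugt305A1 (-2.01) and Ugt36E1 (-0.73) would then keep the lower effect in glands. As labelled, the Ugt37C1 difference was 1.15 (adjusted p = 0.0245), and its call was lost after quantile normalization and without any 1 of the 4 Kc arrays. For Ugt36A1 it was -0.80 (adjusted p = 0.0115) and was lost without Kc H1 array a.

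The control groups gave the levels of these genes without H1 RNAi, with tissue and control target (nau or GFP) changing together. The 3′ minus 5′ control signal also differed between them, with an actin mean of 0.44 in Kc cells and 1.91 in glands, a GAPDH mean of 0.83 and 2.13 and an eIF-4a mean of 0.56 and 2.17. Its part in this comparison was not tested. In the control glands 7 UGT genes were higher than in the control Kc cells (20.0%, next to 24.1% of all named genes) and 9 were lower (25.7%, next to 35.4%).

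Ugt36D1 was at 4.15 and 4.44 in Kc cells given GFP dsRNA and at 9.89 to 10.67 in the glands labelled nau RNAi, a difference of 5.94 (61.5-fold, adjusted p = 1.55e-08). Ugt301D1 was at 4.02 and 3.99 in Kc cells and 8.95 to 9.42 in glands, a difference of 5.23 (adjusted p = 1.28e-09). The Kc signal of both lay only slightly above background. Ugt36E1 (2.11) and Ugt37A3 (1.29) were also higher in glands, and the Ugt37A3 call was lost without Kc GFP array b and on the log2(intensity + 16) scale (0.71). The remaining calls on this side, Ugt303A1, Ugt307A1 and Ugt37A1, were at or near background in both.

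On the other side, Ugt37D1 was at 7.58 and 7.93 in Kc cells and 3.72 to 3.99 in control glands, a difference of -3.88 (14.8-fold, adjusted p = 4.48e-09). Ugt302C1 (-3.78), Ugt49C1 (-3.56), Ugt302K1 (-3.49), Ugt317A1 (-2.74), Ugt49B1 (-2.60), Ugt305A1 (-1.50), Ugt37C2 (-1.11) and Ugt35A1 (-0.80) were lower in glands as well. The Ugt35A1 call was lost without either Kc GFP array and after quantile normalization (-0.26, adjusted p = 0.426), and the difference was -0.49 without nau array c of the glands. On the log2(intensity + 16) scale Ugt305A1 differed by -0.86 and Ugt37C2 by -0.69. The comparison of the gland labels uses the same control gland arrays, so the values of these 9 genes are given only side by side. Of the 9, Ugt302C1, Ugt49C1, Ugt302K1, Ugt317A1 and Ugt35A1 were called higher with the H1 label. Changes of -0.10 for Ugt37D1, 0.01 for Ugt49B1, -0.32 for Ugt305A1 and -0.02 for Ugt37C2 did not pass.

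The order of protein-coding genes in the RefSeq annotation placed 22 of the 35 UGT genes in 6 runs, in which no more than 1 other gene separated neighbours, and 13 alone. The longest run held 9 UGT genes in the order Ugt302K1, Ugt302E1, Ugt302C1, Ugt35E1, Ugt35E2, Ugt35B1, Ugt35A1, Ugt304A1 and Ugt303A1, all formerly named Ugt86D with a letter. In glands Ugt302K1, Ugt302C1 and Ugt35A1 rose, by 2.73, 3.16 and 1.74, and the other 6 changed by -0.15 to 0.13. Of those 6, none was above background in every array of either gland group. In Kc cells Ugt302K1 and Ugt302C1 rose, by 1.48 and 0.65, whereas Ugt35A1 changed by -0.42 and did not pass.

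Within this run, Ugt302E1 lay between called genes, and Ugt35E1, Ugt35E2 and Ugt35B1 separated Ugt302C1 from Ugt35A1 without a call of their own. The gene between Ugt302C1 and Ugt35E1, CG4757, is not a UGT gene, and it rose by 2.40 in glands (adjusted p = 0.00193). Ugt35C1 lies before the run, with mAcon2 and CheA86a between them. mAcon2 changed by 0.07 in glands, and CheA86a is not measured by a probe set used here. After the run, CG18577 changed by -0.09, and cu, which encodes the fly nocturnin, rose by 0.91 in glands and fell by 0.87 in Kc cells (adjusted p = 0.000388 and 0.0166).

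**Figure D3:**
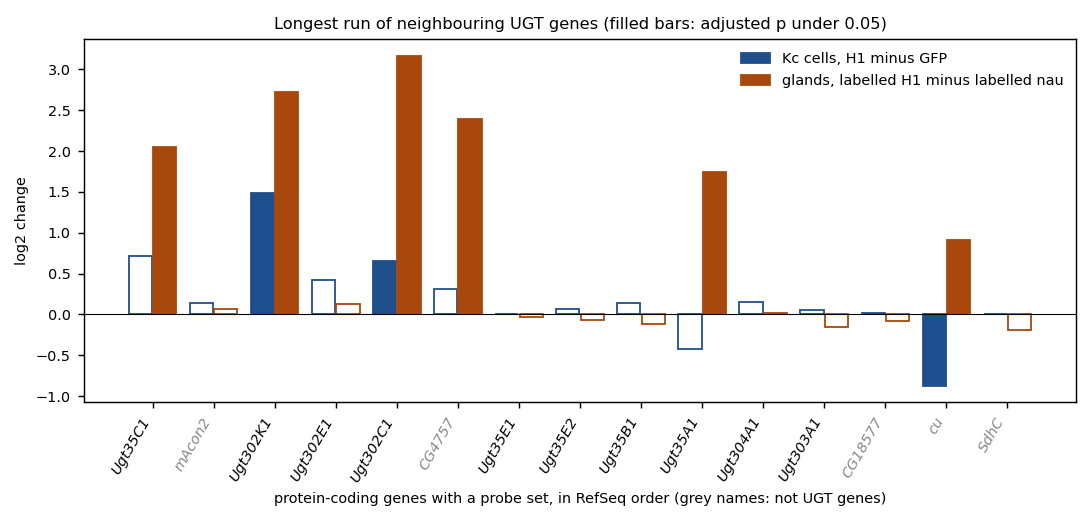
Log2 change in Kc cells (blue) and in glands (brown) along the longest run of neighbouring UGT genes and the measured genes beside it, in gene order. Filled bars passed at an adjusted p under 0.05. Ugt302K1, Ugt302C1, CG4757 and Ugt35A1 rose in glands within the run. The UGT genes between them were not above background in every array of either gland group, so their values near 0 are not measured changes.

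The shorter runs also held neighbours with different readings. In the pair Ugt49B1 and Ugt49C1, Ugt49C1 rose by 3.67 in glands and 1.11 in Kc cells, while Ugt49B1 changed by 0.01 and 0.04. In the pair Ugt37A2 and Ugt37A3, Ugt37A3 rose by 2.78 in glands, while Ugt37A2 read 3.15, 3.92 and 3.11 with the H1 label. In the run of Ugt36F1, Ugt36D1 and Ugt36E1, Ugt36E1 was called in Kc cells, Ugt36D1 in glands and Ugt36F1 (3.39 to 3.95 on all arrays) in neither. No gene of the run Ugt37C2, Ugt37E1 and Ugt37D1 or of the run Ugt303B3, Ugt303B1 and Ugt303B2 was called in either system.

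Grouped by family number, 2 of 3 genes of family 302 were called higher in both systems. None of the 4 genes of family 303 was called, and none of these 4 exceeded background on any array. Of the 8 genes of family 37, Ugt37A3 and Ugt37C1 were called in glands and none in Kc cells. Of the 6 genes of family 35, Ugt35A1 and Ugt35C1 were called in glands and none in Kc cells. All these calls were higher, next to 23.6% of all named genes in glands and 3.46% in Kc cells.

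Genes that make, move or use the UDP-sugar donors were taken from lists written with earlier results of these data known. All list counts below stand beside 23.6% of all named genes called higher and 23.6% called lower in glands. The shares in Kc cells were 3.46% higher and 1.59% lower. Of 14 measured UDP-sugar supply genes, 4 rose and 7 fell in glands, and 1 fell in Kc cells. Galk, the galactose kinase, fell by 2.46 in glands, from 11.88 ± 0.03 (SD, n = 3) to 9.42 ± 0.06 (n = 3). Gnpnat and Gfat1, of the hexosamine route to UDP-N-acetylglucosamine, fell by 2.20 and 1.63, and UGP, which makes UDP-glucose, fell by 1.15, to a level above background on 1 of 3 arrays labelled H1 RNAi. The UDP-glucose dehydrogenase gene sgl rose by 0.95. The Kc call was Pgm2a (-0.42, adjusted p = 0.0268), a phosphoglucomutase gene.

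All 3 measured UDP-sugar transporter genes passed in glands, where Efr rose by 2.00 and Ugalt (-1.60) and senju (-0.50) fell. In Kc cells 0 of 3 passed, with 1 at an unadjusted p under 0.05 in limma. Of 13 other UDP-sugar users 4 fell and none rose in glands, with Alg14 (-1.12), beta4GalNAcTB (-0.91), egh (-0.87) and the O-GlcNAc transferase gene sxc (-0.55). In Kc cells 0 of these 13 passed, with 3 at an unadjusted p under 0.05.

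Partner systems of detoxification also held calls. Cyt-b5-r rose by 3.35 in glands (7.77 ± 0.61 to 11.11 ± 0.15, n = 3 each) and by 1.49 in Kc cells. It was the Kc call among 4 measured genes listed as redox partners of P450 enzymes, all 4 of which rose in glands. Whether Cyt-b5-r serves P450 enzymes was not tested. Cpr and dare, also on this list, were not measured here. Of 8 measured ABC transporter family genes, listed as efflux transporters, 4 rose and 1, Sur (-0.92), fell in glands. In Kc cells 2 rose. Whether the product of Sur acts in efflux was not tested. These 2 were Mdr49 (2.83 in Kc cells, 1.76 in glands) and rdog (0.88 and 2.46). Of 13 sulfotransferase, epoxide hydrolase and alpha-esterase genes, 8 rose and 1 fell in glands, and 3 rose and 1 fell in Kc cells, with alpha-Est5 at 2.46 and 1.26.

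The regulators known for induced detoxification showed other changes. Of 11 measured, 1 rose and 5 fell in glands, and 0 passed in Kc cells, with 2 at an unadjusted p under 0.05 in limma. The falls in glands included foxo (-1.11), Met (-0.92) and gce (-0.69). cnc, the fly Nrf2, changed by -0.18 in glands (adjusted p = 0.0954) and 0.03 in Kc cells. Keap1, which holds Nrf2 in check, fell by 1.01 in glands, from 7.33 ± 0.40 to 6.32 ± 0.14 (n = 3 each). The partner gene maf-S (0.09) and the nuclear receptor gene Hr96 (0.13) did not pass in glands, and the rise was that of ss, within background. For the larger families of the same pathway, 14 of 81 cytochrome P450 genes rose and none fell in Kc cells, and 39 rose and 7 fell in glands. Of 34 glutathione transferase genes 18 rose and 5 fell in glands, and 1 rose and 1 fell in Kc cells.

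**Figure D4:**
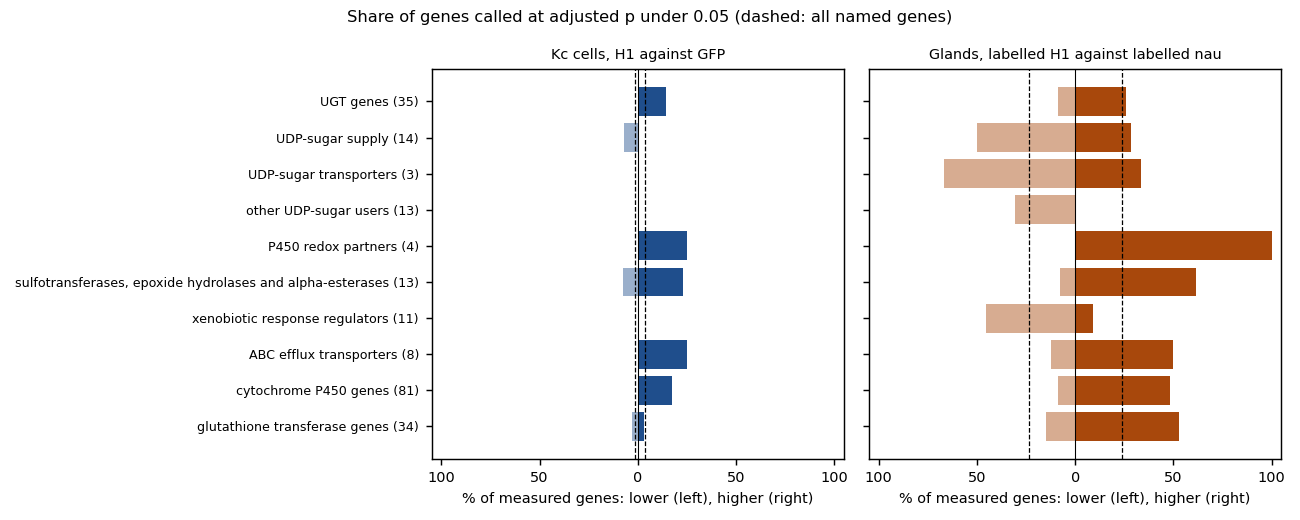
Share of measured genes called higher (right of 0) or lower (left of 0, paler) among UGT genes and the other lists, with the number measured in brackets. Dashed lines give the shares of all named genes, 3.46% and 1.59% in Kc cells and 23.6% each way in glands. UGT genes reach 14.3% higher in Kc cells and 25.7% higher in glands.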

How the data were processed

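Total RNA of 10 samples was hybridised to Affymetrix Drosophila arrays. The deposited values are 1 linear intensity per probe set and array, made by the authors with RMA (version not given) per the submitters' processing notes. They ran from 4.39 to 20761, so log2 was taken. Whether cells and glands were processed together is not given in the sources used here. Of 18952 probe sets 183 controls were left out, and 18769 entered a limma 3.58.1 fit of 4 group means (R 4.3.3, lmFit and eBayes), a procedure tested on simulated data. Benjamini-Hochberg adjustment ran over these 18769 probe sets, and an adjusted p under 0.05 was called. Counts over named genes use 1 probe set a gene (highest mean). Standard deviations, intervals and standard errors cover the spread between arrays, whose number limits precision.

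UGT genes were named in full where called in Kc cells, among the 10 largest gland calls, or called against the majority, and other genes as the up to 4 largest calls of a list, plus those chosen after their values were seen. Members and lists were chosen with earlier results of these data known. Cytochrome P450 genes were taken as Cyp, digits and a letter, which leaves out the cyclophilins Cyp1 and Cyp40. Alternatives were log2(intensity + 16), quantile and median scaling, a filter at the Tag level, separate fits, trended robust variances, a replicate block, another probe set, and each array left out. An exchange of the gland labels was added after seeing the data. Planned descriptions of proteins and promoters are not given here.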

Additional observations from a re-analysis of the deposited data

Results flagged for a closer look

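The effect of H1 RNAi differed between glands and Kc cells for 11 UGT genes (gland effect minus Kc effect, log2 scale, limma adjusted p under 0.05). These make 31.4% of the 35 genes, next to 32% of all named genes, so the count itself does not set UGT genes apart. The difference was 2.90 for Ugt37A3, 2.56 for Ugt49C1, 2.52 for Ugt302C1, 2.16 for Ugt35A1, 1.46 for Ugt317A1, 1.25 for Ugt302K1 and 1.15 for Ugt37C1. It was -2.64 for Ugt305A1, -0.94 for Ugt36E1, -0.80 for Ugt36A1 and -0.44 for Ugt307A1, which stayed within background on all arrays. The gland labels are those of the depositors, and the nau signal was not lower in the glands labelled nau RNAi. Whether its probe set also reads the RNAi construct was not tested. With the labels exchanged, 9 of these 11 differences would have the opposite sign, all but those of Ugt305A1 and Ugt36E1.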

How the results depend on the processing

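The count of UGT genes called in Kc cells was 5 as reported, 10 with Kc cells and glands fitted separately, 3 with the replicate block, and 3 to 6 when each of the 10 arrays was left out. The block and each left-out Kc array removed Ugt302C1 and Ugt49C1. In the separate fit 7.76% of all named genes were called higher and 5.88% lower in Kc cells. As reported, these shares were 3.46% and 1.59%. The shares under the block and the left-out arrays are not given here. The counts for glands (12), for the difference of effects (11) and for control glands against control Kc cells (16) stayed within 1.5 times under every alternative run with the labels kept, with 11 to 14, 8 to 12 and 12 to 17 when an array was left out. Separate fits give no value for the last 2, and no replicate block was fitted for the last. With the labels kept, no called change turned its sign. Calls held under every alternative run with the labels kept for 3 of 5 Kc genes, 11 of 12 gland genes, 8 of 11 differences and 12 of 16 control differences. With log2(intensity + 16) the 7 higher and 9 lower control differences became 4 and 9. Whether the arrays' letters pair them was not settled, and the main fit used no pairing. Same-lettered arrays had deviations correlated at -0.00319 in Kc cells and at -0.0722, 0.0892 and 0.0655 in glands, and 4 of 6 gland arrays correlated best with their own letter. The choice of another probe set changed nothing, as each UGT gene had 1. Low signal limits the 16 genes not above background.

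Exchanging the gland labels, an alternative chosen after seeing the data, gave 12 gland calls (3 higher, 9 lower), 12 differences and 17 control differences. The gland changes became -3.67 (Ugt49C1), -3.16 (Ugt302C1), -2.78 (Ugt37A3), -2.73 (Ugt302K1), -2.05 (Ugt35C1), -1.74 (Ugt35A1), -0.96 (Ugt37C1), -0.91 (Ugt317A1), -0.67 (Ugt36D1), 0.38 (Ugt316A1), 0.60 (Ugt307A1) and 1.04 (Ugt36A1). The differences of effects that turned became -4.78 (Ugt49C1), -4.21 (Ugt302K1), -3.81 (Ugt302C1), -2.77 (Ugt35C1), -2.65 (Ugt37A3), -1.32 (Ugt35A1), -0.76 (Ugt37C1), -0.36 (Ugt317A1), 0.69 (Ugt316A1), 0.76 (Ugt307A1) and 1.28 (Ugt36A1). Of these, Ugt37C1 and Ugt317A1 did not pass. Against control Kc cells the values that turned were 1.85 (Ugt35C1), 0.94 (Ugt35A1), 0.11 (Ugt49C1, not called), -0.35 (Ugt307A1) and -0.87 (Ugt36A1). Ugt307A1 stayed within background on all arrays, so its values in this paragraph are not measured changes.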
